A study of Mus musculus with 6 samples.

Results

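The cilium and centrosome gene families described here are the mouse protein-coding genes named Bbs, Ift, Nphp, Cep, Tctn, Ttc or Kif with a number, or beginning with Dync2 or Dnah. Of 161 such genes in the annotation, 85 could be read in the count files and 67 had at least 10 counts in at least 3 libraries. These 67 are called members, out of 9520 genes read in all and 5246 tested. The rule uses gene names and counts, and 3 members described below met the count minimum only through the ARF libraries. All 67 passed the low-count filter of the test.

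The libraries were made from kidney of C57BL/6 mice at postnatal day 21, an age at which the mouse kidney has formed its nephrons. There were 3 libraries labelled healthy and 3 labelled with acute renal failure (ARF), in which the kidney stops filtering within a short time. The labels name no allele, agent or operation, so what brought about renal failure is not known here, and no label says if each library is 1 animal. The p-values therefore measure the spread between these libraries, which may be technical. Below, healthy and ARF stand for these labels.

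Nearly every kidney epithelial cell carries a primary cilium, a single non-motile antenna that grows from the mother centriole of the centrosome. Intraflagellar transport carries cargo along it: the IFT-B complex with kinesin-2 moves outward, the IFT-A complex with the dynein-2 motor moves back, and the BBSome, a coat of Bbs proteins, ferries membrane proteins out. A gate at its base, the transition zone, decides what enters. Loss of many of these proteins causes cystic kidney disease, nephronophthisis or Bardet-Biedl syndrome in people. The family names also bring in proteins with other work: mitotic and cargo kinesins, axonemal dyneins of motile cilia, and Ttc proteins that share only a repeat domain.

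The name of a deposited row was often not that of the gene whose exons lay beneath it, and only 19 of the 67 members had a row of their own name, so each row was named here by the exons of the mouse assembly GRCm38 that it covers. A member was read through 33 to 14467 exon bases, with a median of 327, and levels of different members are therefore not compared. A row can also lie on introns of its gene or, as for Ift22, run outside the gene. Exons made up from 0.83% to all of a member's row bases, with a median of 7.83%. The intron densities that follow do not cover bases outside the gene. Rows lying wholly in introns of member genes held 6.59 counts per kilobase over the 6 libraries, against a median of 111 per kilobase in the rows read as members. For 53 of the 67 members, and for 24 of the 28 called below, the density was more than 5 times that of the intron rows. The 4 exceptions among the called members are Dnah2, Dnah9, Kif26a and Tctn1. Total counts ran from 2873370 to 5710010 in the healthy libraries and from 5455886 to 6191479 in the ARF libraries, with healthy replicates 2 and 3 the shallowest.

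Promoters were searched for an X-box-like palindrome, GTNNCC, any 2 bases and then GGNNAC, the form of site that RFX transcription factors of ciliary genes are known to bind. RefSeq promoters of GRCm38.p6 (250 bases before to 50 after a gene's start) were found for 58 members. The palindrome, which reads the same on both strands, was present in 8 of these 58 (13.8%), in 109 of 4057 tested genes with a promoter (2.69%) and in 583 of all 27025 genes with one (2.16%). Among the 16 members of the BBSome, the IFT complexes, dynein-2 and the transition zone that had a promoter it was present in 6 (37.5%). The stretches below show it in capitals, 5′ to 3′ on the gene's own strand, with flanking bases for 3 ciliary members whose match lay upstream of the first exon or between exons, and the match alone for the others.
Bbs7, chr3:36613474-36613533, minus strand: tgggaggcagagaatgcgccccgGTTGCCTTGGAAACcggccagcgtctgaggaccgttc
Ift22, chr5:136908094-136908153, plus strand: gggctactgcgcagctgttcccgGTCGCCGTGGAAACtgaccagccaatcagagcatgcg
Nphp4, chr4:152477892-152477947, plus strand: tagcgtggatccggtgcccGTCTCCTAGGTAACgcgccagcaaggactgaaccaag
Ttc26, chromosome 6, plus strand: GTTGCCGTGGAAAC
Bbs1, chromosome 19, minus strand: GTTGCCAAGGCGAC
Tctn1, chromosome 5, minus strand: GTTGCCCGGGCAAC
Cep83, chromosome 10, plus strand: GTTTCCCGGGCTAC
Ttc13, chromosome 8, minus strand: GTCCCCATGGCCAC
Ift22 held a second match, GTTTCCTGGGCTAC, further upstream. Of the 8 genes, Bbs1 and Tctn1 were higher and Cep83 lower in the ARF libraries, and the other 5 were not called. A match describes the letters and is not evidence of binding.

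The comparison of the groups asks which of these transcripts differed between kidneys labelled ARF and healthy. In the ARF libraries 22 of 67 members were higher (32.8%) and 6 lower (8.96%), at a Benjamini-Hochberg adjusted p under 0.05 over all genes in edgeR's quasi-likelihood fit. Over all 5246 genes tested, 25.1% were higher and 24.9% lower. Members that rose include parts of the ciliary transport machinery (Ift80, Ift172, Dync2h1, Ift122, Bbs1) and centrosome proteins (Cep131, Cep68, Cep250). The Cep250 call was lost without a row that also holds another gene's exon (edgeR adjusted p = 0.199). The axonemal dynein Dnah2, which had the largest log2 fold change, and the kinesin Kif26a were also called higher, with limits. Dnah2 met the count minimum only through the ARF libraries, which favours a rise. It held 3.49 counts per kilobase of row, against 6.59 in the intron rows of all members and 0.981 in its own. Kif26a held 25.6 counts per kilobase against 23.3 in its own introns, and its call held in 2 of the 6 fits that leave out 1 library. Cep170, Cep170b and Cep83 were among those that fell. The median log2 fold change, ARF minus healthy, was 0.44 over the members and 0.01 over all genes tested, and it was above 0 for 45 of 67 members (67.2%) and for 50.7% of all genes tested. Of the 28 called members 15 differed by at least 2-fold. The same share was not counted over all genes tested, so 15 of 28 cannot be read as high or low.

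**Figure D1:**
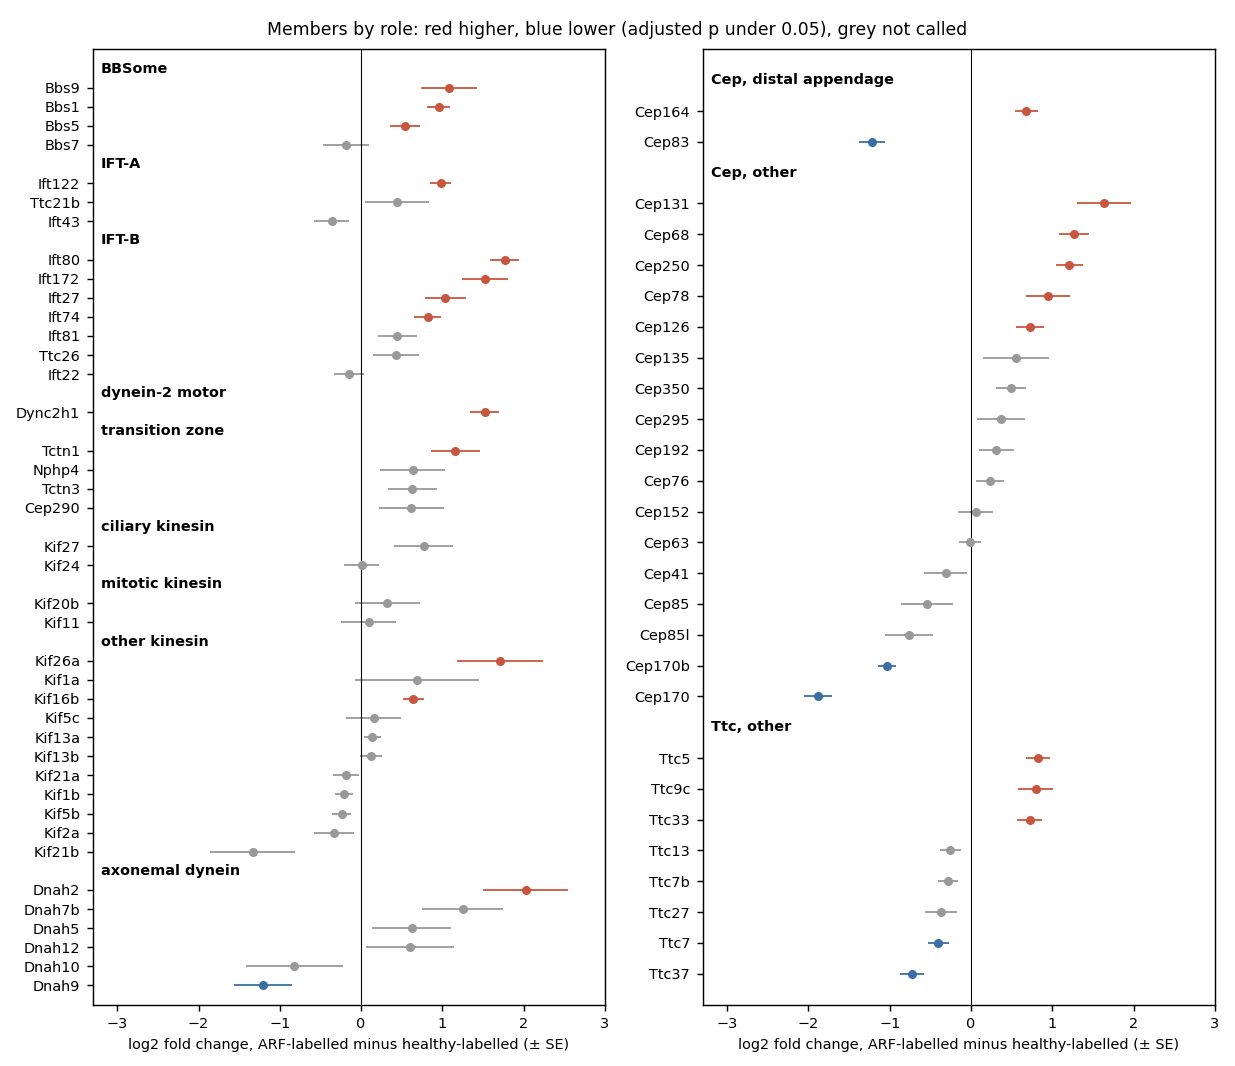
Log2 fold change of each of the 67 members (ARF minus healthy, points, with SE as bars), grouped by role. Red points are the 22 members called higher, blue the 6 called lower and grey the 39 not called. All blue points lie in the Cep, Ttc and axonemal dynein groups. The transport complexes, the transition zone and the kinesin groups hold none.

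**Figure D2:**
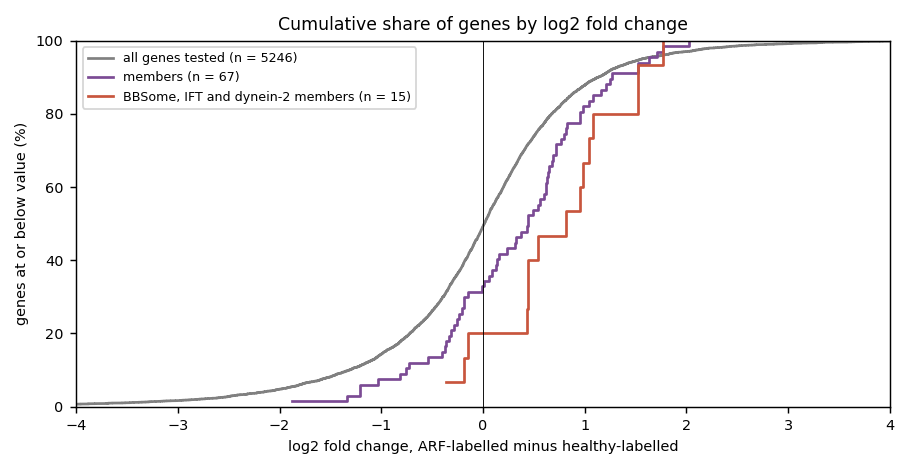
Cumulative share of genes (vertical axis, percent) at or below each log2 fold change (horizontal axis, ARF minus healthy), for all 5246 genes tested, the 67 members and the 15 members of the BBSome, IFT and dynein-2 complexes. The medians are 0.01 for all genes, 0.44 for the members and 0.82 for the 15.

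Levels below are CPM, counts relative to the library total scaled by TMM, given for replicates 1, 2 and 3 of each group in that order, then as mean ± SD over n = 3 libraries. The number of counted exon bases is given for the members on which the results turn.

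Of the 15 members that belong to the BBSome, IFT-A, IFT-B or dynein-2, 9 were higher (60%) and 0 lower in the ARF libraries. The plan kept these roles as separate groups, and they were pooled here outside it. Over all genes tested the shares were 25.1% higher and 24.9% lower, and these shares apply to the counts by role below. At an unadjusted p under 0.05 the edgeR counts were also 9 and 0, and DESeq2 called 8 and 0. With 1 library left out, 7 to 9 of the 15 were called higher and 0 lower. The median log2 fold change of the 15 was 0.82.

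Dync2h1, the heavy chain of the dynein-2 motor that returns cargo to the cell body (chromosome 9, 6928503 to 7184446), was read over all 14467 of its exon bases in a row that carries its own name. It stood at 237, 257 and 256 CPM in the healthy libraries (mean 249.9 ± 11.1) and at 866, 535 and 752 CPM in the ARF libraries (mean 717 ± 168). The groups did not overlap, and the lowest ARF library, replicate 2, was still well above every healthy one. The log2 fold change was 1.52 (SE 0.18, adjusted p = 0.000217).

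Among IFT-B subunits, 4 of 7 members rose. Ift80, an outer subunit whose loss causes a skeletal ciliopathy (chromosome 3, 68892499 to 69004570), was read through 283 exon bases and stood at 6.97, 6.18 and 7.63 CPM in the healthy and 24.0, 21.9 and 25.4 CPM in the ARF libraries. The replicates of each group lay close together, with means of 6.93 ± 0.725 and 23.8 ± 1.77 CPM, a log2 fold change of 1.77 (SE 0.18, adjusted p = 0.000105). Its row also holds an exon of the unconfirmed gene model Gm48183. Ift172, the largest IFT-B subunit (chromosome 5, 31253277 to 31291116; 356 exon bases), stood at 19.8, 25.5 and 23.8 CPM against 64.8, 92.5 and 40.6 CPM. The ARF libraries were spread more than 2-fold among themselves here, yet all lay above the healthy ones (log2 fold change 1.53, SE 0.28, adjusted p = 0.00249).

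Ift27, a Rab-like GTPase that links IFT-B to the BBSome, stood at 5.10 ± 0.319 CPM in the healthy and 10.5 ± 2.06 CPM in the ARF libraries (log2 fold change 1.04, SE 0.25, adjusted p = 0.00880). Ift74, which with Ift81 carries tubulin, stood at 15.3 ± 2.92 and 27.4 ± 1.53 CPM (log2 fold change 0.82, SE 0.17, adjusted p = 0.00411). Its partner Ift81 had values of 13.8, 12 and 9.39 CPM against 17.0, 19.1 and 12.3 CPM, which overlap, and was not called (log2 fold change 0.45, SE 0.24, adjusted p = 0.149). Ttc26, also known as Ift56, was not called either (log2 fold change 0.43, SE 0.28, adjusted p = 0.230), nor was the Rab-like Ift22 (log2 fold change -0.15, SE 0.19, adjusted p = 0.541). Whether the 3 uncalled subunits differ from the 4 called ones was not tested.

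In IFT-A, which carries cargo back with dynein-2, the core subunit Ift122 (chromosome 6, 115853470 to 115926699; 688 exon bases) stood at 43.2, 35.3 and 43.7 CPM in the healthy and 76.8, 84.4 and 80.7 CPM in the ARF libraries. That is 40.7 ± 4.73 against 80.6 ± 3.79 CPM, a gap of many times the spread within either group (log2 fold change 0.98, SE 0.13, adjusted p = 0.000392). Ttc21b, the Ift139 subunit, was read through 39 exon bases and had a log2 fold change of 0.44 (SE 0.39, adjusted p = 0.380). Ift43, read through 33 exon bases, was not called and pointed the other way (log2 fold change -0.36, SE 0.22, adjusted p = 0.197), with all 3 ARF libraries (7.81 to 11.1 CPM) below the healthy ones (11.3 to 13.8 CPM). Over all genes tested the groups did not overlap in 29.1% with the ARF libraries below and in 31.1% with them above.

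The BBSome contributed 4 members, of which 3 were called. Bbs1, the subunit most often mutated in Bardet-Biedl syndrome (chromosome 19, 4886878 to 4906628; 1818 exon bases), stood at 20.2, 20.7 and 22.3 CPM in the healthy and 45.4, 41.7 and 35.6 CPM in the ARF libraries. The means were 21.1 ± 1.10 and 40.9 ± 4.95 CPM, without overlap (log2 fold change 0.96, SE 0.14, adjusted p = 0.000754). Bbs9, a scaffold subunit read through 72 exon bases, stood at 4.90, 7.27 and 2.93 CPM against 9.43, 13.5 and 8.57 CPM (log2 fold change 1.08, SE 0.35, adjusted p = 0.0306). Bbs5, which binds membrane phosphoinositides, stood at 10.6 ± 0.320 against 15.4 ± 1.88 CPM (log2 fold change 0.54, SE 0.19, adjusted p = 0.0414). Both calls were weak: Bbs9 was not called without healthy replicates 1 or 3 or ARF replicate 2, and Bbs5 without any single library except ARF replicate 3, with adjusted p over the 6 such fits from 0.0169 to 0.102 and from 0.0345 to 0.122. Bbs7 did not follow (log2 fold change -0.19, SE 0.28, adjusted p = 0.608), with overlapping values of 6.79, 6.18 and 9.68 CPM against 7.89, 5.38 and 6.61 CPM.

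**Figure D3:**
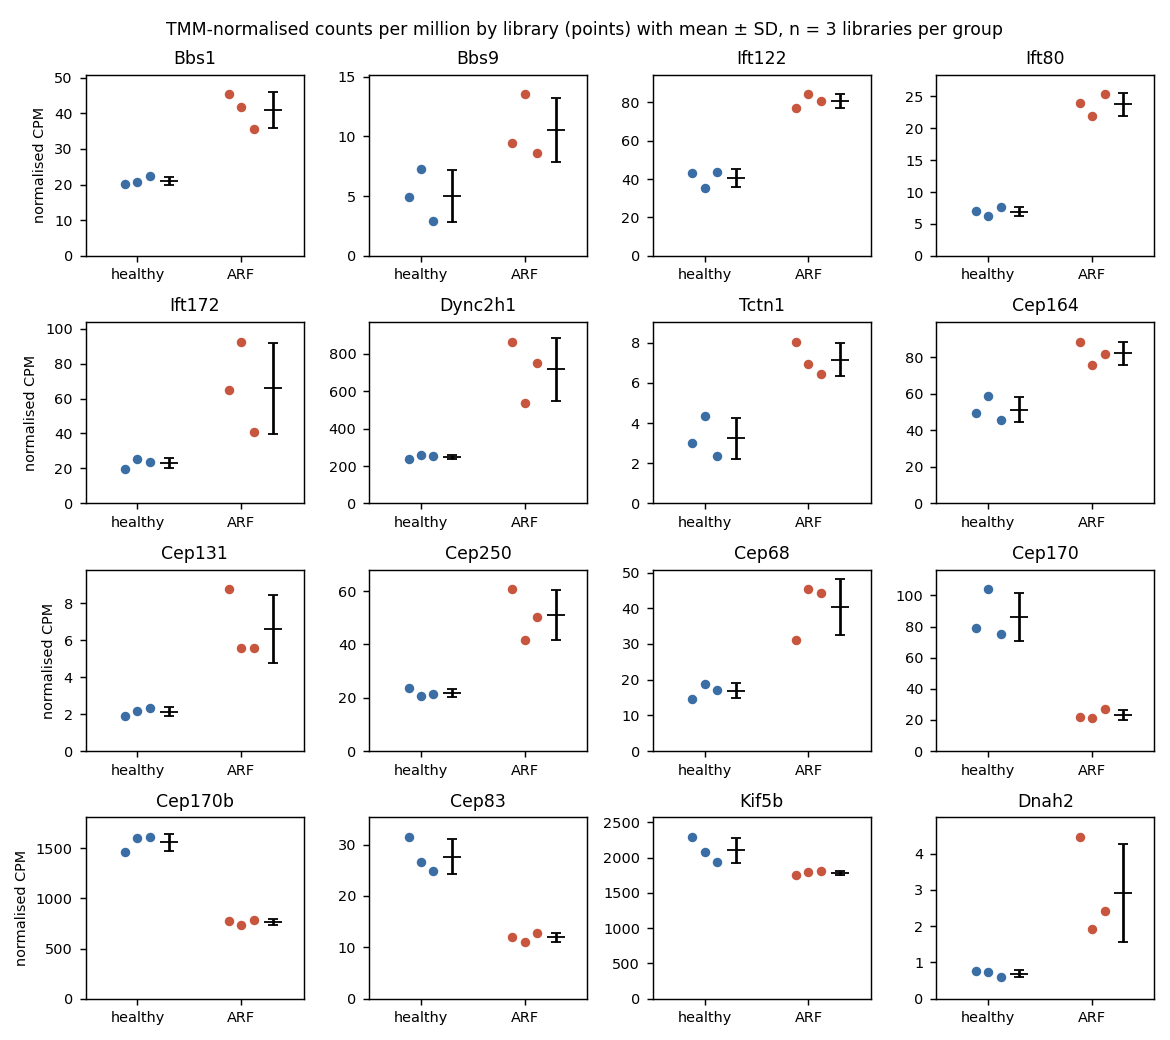
TMM-normalised CPM of 16 members in each of the 3 healthy (blue) and 3 ARF (red) libraries, with mean ± SD beside the points; each panel has its own axis from 0. Bbs1, Ift122, Ift80, Dync2h1 and Cep68 lie higher in every ARF library than in any healthy one, Cep170, Cep170b and Cep83 lie lower, and Kif5b lies slightly lower without being called.

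At the transition zone all 4 members had a log2 fold change above 0, and 1 was called. Nphp4 among them reached 10 counts only in ARF libraries, which favours a value above 0, so its direction is no separate result. Tctn1, a tectonic protein of the gate, stood at 3.02, 4.36 and 2.35 CPM in the healthy and 8.06, 6.94 and 6.46 CPM in the ARF libraries, without overlap (log2 fold change 1.16, SE 0.30, adjusted p = 0.0124). Its row covers 61 exon bases and held 22.6 counts per kilobase, and Tctn1 was not called without healthy replicate 3 (adjusted p over the 6 fits that leave out 1 library from 0.0123 to 0.0548). Its relative Tctn3 (log2 fold change 0.63, SE 0.30, adjusted p = 0.117), the nephronophthisis protein Nphp4 (0.63, SE 0.40, adjusted p = 0.215) and Cep290, whose loss causes several ciliopathies (0.62, SE 0.40, adjusted p = 0.224), were not called. Nphp4 stood at 1.62 ± 0.513 and 2.48 ± 0.568 CPM, with overlapping groups. Tctn2, which the annotation used does not class as protein-coding and which is therefore no member, was read in the same way and stood at 10.2 ± 3.33 CPM in the healthy and 20.4 ± 0.943 CPM in the ARF libraries (log2 fold change 0.96, SE 0.23, adjusted p = 0.00959).

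Among the 20 members named Cep, proteins of the centrosome and basal body, 6 were higher (30.0%), 3 lower (15.0%) and 11 not called, against 25.1% higher and 24.9% lower over all genes tested. The distal appendages, spokes that dock the mother centriole to the membrane before a cilium grows, were read through a pair of members that went opposite ways. Cep164 (chromosome 9, 45766946 to 45828691; 2185 exon bases in 3 rows) stood at 49.4, 58.9 and 45.5 CPM in the healthy and 88.5, 75.9 and 81.9 CPM in the ARF libraries (log2 fold change 0.68, SE 0.14, adjusted p = 0.00354). Cep83, which places Cep164 on the appendage (chromosome 10, 94688654 to 94790853; 331 exon bases), stood at 31.5, 26.5 and 24.9 CPM against 12, 11.1 and 12.8 CPM (log2 fold change -1.21, SE 0.16, adjusted p = 0.000418). In neither gene did the groups overlap.

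The largest fall among the members was that of Cep170, a protein of the subdistal appendages that anchor microtubules (chromosome 1, 176733653 to 176814067; 1211 exon bases). It stood at 79.4, 104 and 75.4 CPM in the healthy and 21.8, 21.0 and 27.0 CPM in the ARF libraries, a log2 fold change of -1.88 (SE 0.17, adjusted p = 6.70e-05). Its paralog Cep170b (chromosome 12, 112720455 to 112746592; 3855 exon bases in 2 rows) fell as well, from 1461, 1603 and 1611 CPM to 776, 730 and 783 CPM (log2 fold change -1.03, SE 0.11, adjusted p = 0.000140). Every healthy library was above every ARF one for both paralogs. The rows of Cep170b also hold the microRNA gene Mir6940 and the pseudogene Gm5189, whose share of the reads was not tested.

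Of the members that rose, Cep250 and Cep68 belong to the fibre that links the centrosome's pair of centrioles. Cep250 stood at 23.6, 20.7 and 21.4 CPM against 60.7, 41.8 and 50.3 CPM (log2 fold change 1.21, SE 0.16, adjusted p = 0.000480). One of its rows also holds an exon of 6430550D23Rik. Without that row the log2 fold change was 0.79 and the call was lost (adjusted p = 0.199, against 2.29e-07 to 0.00447 over the other alternatives). Cep68 was read through a row made wholly of its exons and stood at 14.7, 18.9 and 17.0 CPM against 31.2, 45.3 and 44.2 CPM (log2 fold change 1.27, SE 0.19, adjusted p = 0.000759).

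Cep131, a protein of the centriolar satellites that supply the basal body, stood at 1.89, 2.18 and 2.35 CPM in the healthy and 8.74, 5.56 and 5.56 CPM in the ARF libraries. It had the largest log2 fold change of the Cep members, at 1.63 (SE 0.33, adjusted p = 0.00400), from low counts. Cep126, a centrosomal protein needed for cilium formation, was read over 3809 of its 3819 exon bases in a row of its own name and stood at 63.7 ± 6.38 and 105 ± 22.4 CPM (log2 fold change 0.72, SE 0.17, adjusted p = 0.00852). Cep78, a centriolar protein, had a log2 fold change of 0.95 (SE 0.27, adjusted p = 0.0173) and was not called without healthy replicate 3 or ARF replicate 3 (adjusted p over the 6 fits from 0.0334 to 0.0644). The centriole duplication proteins Cep63 (-0.01, SE 0.14), Cep152 (0.06, SE 0.22) and Cep192 (0.31, SE 0.21) were not called, with adjusted p of 0.957, 0.849 and 0.25. Cep350, a large centrosomal protein, lay just outside the threshold (log2 fold change 0.49, SE 0.18, adjusted p = 0.0504), with ARF replicate 1 at 1065 CPM and the other 5 libraries between 552 and 719 CPM. It was called with DESeq2 and with no low-count filter (adjusted p over all alternatives from 0.0152 to 0.134), and its rows also hold exons of Lhx4 and Qsox1. The other uncalled Cep members had log2 fold changes from -0.76 (Cep85l) to 0.56 (Cep135).

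Most kinesins did not pass the test: of 15 members 2 were higher (13.3%) and 0 lower, against 25.1% and 24.9% over all genes tested. At an unadjusted p under 0.05, 1 was lower, and 1 was lower by DESeq2, in both cases Kif21b. Kif16b, a motor of early endosomes, stood at 34.9, 34.2 and 40.5 CPM in the healthy and 62.7, 53.6 and 54.9 CPM in the ARF libraries (log2 fold change 0.64, SE 0.13, adjusted p = 0.00367). Kif26a, an atypical kinesin without motor activity, was called at 1.71 (SE 0.53, adjusted p = 0.0257), but its row also holds exons of Aspg, only 223 of its 6918 row bases are Kif26a exons, and that row held 25.6 counts per kilobase against 23.3 in its own introns. The call was lost when any 1 healthy replicate or ARF replicate 1 was left out (log2 fold change 1.02 without the latter), with adjusted p over the 6 fits from 0.0126 to 0.0987. Kif21b, a kinesin of neurons and immune cells, had 5.47, 16.7 and 12.6 CPM against 6.34, 1.74 and 5.26 CPM, which overlap (log2 fold change -1.33, SE 0.52, adjusted p = 0.0615).

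Kif5b, the heavy chain of conventional kinesin, had the most counts of any member, 57027, over all 6032 of its exon bases, in a row that also covers the antisense genes AC113003.1 and Gm17036. It stood at 2292, 2083 and 1933 CPM in the healthy and 1749, 1798 and 1803 CPM in the ARF libraries, a small difference that was not called (log2 fold change -0.24, SE 0.11, adjusted p = 0.117). The ciliary kinesins were read through Kif24, which trims microtubules at the mother centriole (log2 fold change 0.01, SE 0.22, adjusted p = 0.977), and Kif27, a relative of the hedgehog kinesin Kif7 (0.77, SE 0.36, adjusted p = 0.110). The mitotic kinesins Kif11, which pushes spindle poles apart (0.09, SE 0.34, adjusted p = 0.843), and Kif20b, which acts in cytokinesis (0.32, SE 0.40, adjusted p = 0.536), were not called. Kif1a, Kif1b, Kif2a, Kif5c, Kif13a, Kif13b and Kif21a had log2 fold changes from -0.34 to 0.69 and were not called.

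The axonemal dynein heavy chains, which power motile cilia and are not parts of a primary cilium, had few counts and no common direction. Of 6 members 1 was higher, 1 lower and 4 not called, against 25.1% higher and 24.9% lower over all genes tested. At an unadjusted p under 0.05 in edgeR, and likewise by DESeq2, 2 were higher and 1 lower. Dnah2, of the inner arm, had 8 counts in the healthy and 53 in the ARF libraries (log2 fold change 2.03, SE 0.52, adjusted p = 0.0118). Dnah9, of the outer arm, stood at 3.96, 8.0 and 6.45 CPM against 2.91, 2.08 and 2.70 CPM (log2 fold change -1.21, SE 0.35, adjusted p = 0.0203) and was not called without healthy replicates 2 or 3 or ARF replicates 2 or 3 (adjusted p over the 6 fits from 0.00872 to 0.0686). They were counted at 3.49 and 4.79 per kilobase of row, below the 6.59 per kilobase of the intron rows of all members together. Rows in introns of Dnah2 itself held 0.981 per kilobase, from 3 counts. The part of unspliced RNA in these calls was not tested. Dnah7b ran from 5.66 to 10.9 CPM in the healthy libraries and stood at 33.4, 10.1 and 11.7 CPM in the ARF ones, with replicate 1 far above the rest (log2 fold change 1.25, SE 0.50, adjusted p = 0.0644). In ARF replicate 2 Dnah5 and Dnah10 were at their lowest, at 6.42 and 1.22 CPM, against 19.2 and 6.69 CPM in replicate 1 and 23.4 and 9.47 CPM in replicate 3.

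The 8 remaining Ttc members, which share a tetratricopeptide repeat rather than a ciliary role, split into 3 higher (37.5%), 2 lower (25%) and 3 not called. Over all genes tested 25.1% were higher and 24.9% lower. Ttc5, a cofactor of p300 that also adjusts tubulin messenger RNA, stood at 16.4, 16.4 and 15.0 CPM in the healthy and 24.9, 29.5 and 30.4 CPM in the ARF libraries (log2 fold change 0.83, SE 0.15, adjusted p = 0.00195). Ttc37, a subunit of the Ski complex of RNA decay, fell from 58.6, 60.7 and 51.6 CPM to 34.5, 40.1 and 28.9 CPM (log2 fold change -0.73, SE 0.15, adjusted p = 0.00427). Ttc33 (0.72, SE 0.16, adjusted p = 0.00514) and Ttc9c (0.80, SE 0.22, adjusted p = 0.0147) rose; the row of Ttc33 also holds an exon of Ptger4, and Ttc9c was not called without ARF replicate 3 (adjusted p over the 6 fits from 0.0187 to 0.0505). Ttc7, a scaffold of the phosphatidylinositol 4-kinase complex, was lower (-0.40, SE 0.13, adjusted p = 0.0330) but not without healthy replicate 3 or ARF replicates 2 or 3 (0.0275 to 0.113 over the 6 fits).

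In all, 3 members reached 10 counts only in libraries of the ARF group, namely Dnah2, Nphp4 and Kif27. A gene that enters in this way had more counts in each ARF library than in any healthy one, which favours a rise. Healthy replicates 2 and 3 were the shallowest libraries, so depth also favours entry through the ARF group. Without these 3 members, 21 of 64 were higher and 6 lower. Dnah2, with 61 counts in all, was the member with the fewest, and just outside was Kif4, with 10 or more counts in 2 libraries (10, 4, 6, 7, 13 and 5 counts). The other 17 readable family genes that are no members include Kif14 and Ttc29, with 0 counts in every library.

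Genes of the same machinery outside these families were read from lists. Of 29 other cilium and basal body genes tested, 14 were higher and 2 lower in the ARF libraries, with a median log2 fold change of 0.49; for this and the next lists the shares over all genes tested were 25.1% higher and 24.9% lower. The IFT-A subunit Wdr19 stood at 8.66 ± 1.83 and 29.4 ± 0.894 CPM (log2 fold change 1.73, SE 0.18, adjusted p = 0.000125), the nephronophthisis protein Anks6 at 82.6 ± 6.16 and 158 ± 7.33 CPM (0.94, SE 0.10, adjusted p = 0.000154) and the ciliary kinase Mok at 4.93 ± 0.195 and 17.1 ± 0.689 CPM (1.80, SE 0.20, adjusted p = 0.000160). Of 17 centriole and pericentriolar genes, which include the member Cep63, 7 were higher and 3 lower. The pericentriolar scaffolds Pcnt (0.82, SE 0.13) and Cdk5rap2 (0.83, SE 0.16) rose, and Nin, which anchors microtubules at the subdistal appendages, fell (-1.23, SE 0.20), read through rows that also hold exons of Atl1 and Sav1. Of 24 readable motile cilium genes only 5 could be tested, and the rest had too few counts. Summed over the 24, levels were 32.7 to 44.9 CPM in the healthy and 43.4 to 47.9 CPM in the ARF libraries. Of the 5 tested, 4 were higher, but Cfap52 and Cfap54 among them reached 10 counts only in ARF libraries, which favours a rise there. Of the others, Rfx3, an RFX factor of ciliated cells, had a log2 fold change of 1.31 (SE 0.36, adjusted p = 0.0161). That value rests on 30 counts in the healthy and 122 in the ARF libraries, over 11512 row bases. Exons made up 2.81% of the row bases of Rfx3 and 2.78% of those of Cdk5rap2. The part of unspliced RNA in these list genes was not tested. Of 6 genes of hedgehog signalling, which runs through the cilium, 4 were higher and 1 was lower. Among those higher were the co-receptors Cdon (1.28, SE 0.16) and Boc (0.98, SE 0.21). Smo, read over 3768 of its 3779 exon bases, was also higher (0.44, SE 0.11). The gene that fell was Sufu (-0.43, SE 0.14). Of 10 cell division genes 2 were higher, Racgap1 (2.41, SE 0.21) and Smc2 (1.36, SE 0.17), and the third by adjusted p, Rrm2, was not called (-0.45, SE 0.22, adjusted p = 0.128).

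**Figure D4:**
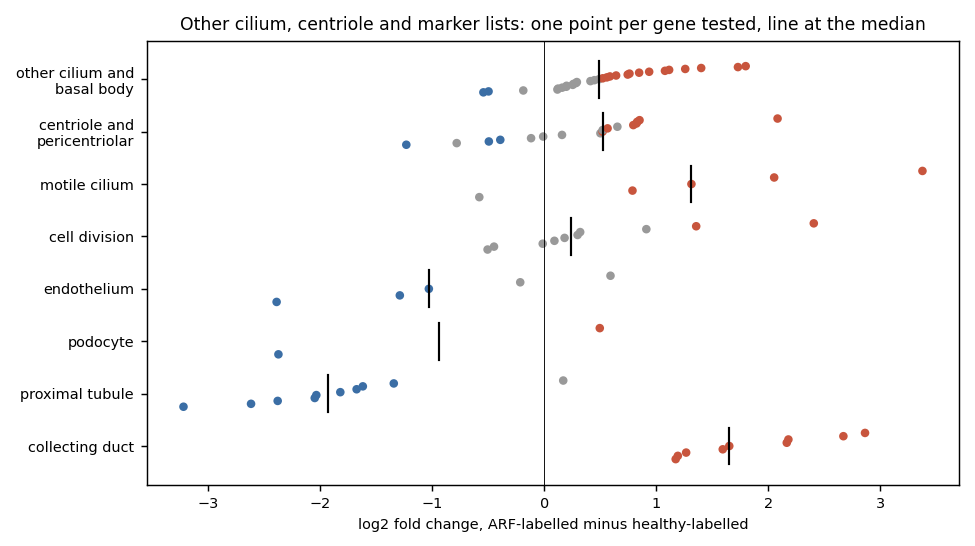
Log2 fold change (horizontal axis, ARF minus healthy) of each tested gene outside or beside the families, by list, with a line at each list's median; red points were called higher, blue lower and grey not called. The points of other cilium and basal body genes lie mostly above 0 (14 of 29 called higher), as do all 9 collecting duct markers, while 9 of 10 proximal tubule markers were called lower.

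Markers of kidney cell types moved with the groups in the same libraries. All 9 collecting duct markers tested were higher in the ARF libraries, with a summed level of 4711 to 5602 CPM in the healthy and 13616 to 16328 CPM in the ARF libraries. Of 10 proximal tubule markers 9 were lower and 0 higher, with sums of 18411 to 28355 CPM against 7568 to 7961 CPM. RNA of both tubule types was thus counted in all 6 libraries. Of 13 markers of brain, testis, liver or airway only Gfap was readable, through 74 of its 4072 exon bases. Gfap had 0 counts in every library, which over so few bases cannot tell if other tissue was present. Endothelial markers (3 of 5 lower), macrophage and lymphocyte markers (4 of 5 lower) and neutrophil markers (2 of 2 lower) were lower in part or whole, and the 2 podocyte markers were called in opposite directions. Of 10 fibroblast and mural markers 4 were lower and 1 higher, of 4 markers of the loop of Henle and distal tubule 2 were higher and 2 lower, and of 3 erythroid markers Hbb-bs and Alas2 were lower and Slc4a1, which is also 1 of the 9 collecting duct markers, was higher. The part of these shifts in the members' differences was not tested, and in bulk tissue fewer cells of a type and less RNA per cell cannot be told apart.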

How the data were processed

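The members and gene lists were chosen with earlier results of these data known. RNA was extracted with Trizol and libraries were made with a TruSeq kit, per the labels' protocols. The authors deposited raw fragment counts per gene row, made with featureCounts 2.0.1 over exons with strand ignored, per the file headers. Bowtie 0.12.2 and mm9 stand in the submitters' processing notes; the aligner and build behind these counts are not given in the sources used here. Of 53546 rows, 12401 were given to a GRCm38 gene (GENCODE M21 basic, bedtools 2.31.1) that held at least 90% of the row's overlapped exon bases and at least 25 bases, and rows of a gene were summed (63.0% of all counts). Without strand, sense and antisense reads cannot be told apart, and neither can near-identical copies. Library totals covered all rows. edgeR 4.0.16 in R 4.3.3 (TMM, filterByExpr, glmQLFit, glmQLFTest, two-sided, group as only term) was fitted to all genes. It was checked on simulated data in which a small share of genes changed. That check does not cover data in which 50.0% of the genes tested were called. The SE is the log2 fold change divided by the square root of F. Members named with full values are Bbs1, Cep164 and Cep170b, the 8 largest rises and falls among those called, the 3 with the smallest adjusted p in each role and every member of roles with at most 4, and the genes just inside and outside the count minimum; others were named after their values were seen. Alternatives changed the scaling, filter, test (DESeq2 1.42.0), row assignment, replicate block and libraries used.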

Additional observations from a re-analysis of the deposited data

How the results depend on the processing

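Under the planned scaling, filter, test and assignment alternatives, and with 1 library left out, the number of members called higher, 22 as reported, stayed between 17 and 25 and the number called lower, 6 as reported, between 4 and 8. With 1 library left out the ranges were 17 to 23 and 4 to 8, and 16 of the 22 higher and 4 of the 6 lower calls held in all 6 fits. Scaling by total counts alone moved the median of all genes to 0.19 and gave 25 higher and 5 lower. The replicate block gave 21 higher and 5 lower, losing Bbs5 and Ttc7. The replicate numbers come from the titles. Correlations were taken over genes between deviations of log CPM from the group mean. They were -0.07, -0.22 and -0.29 for same-numbered libraries and from -0.055 to 0.245 for the other pairs. With 3 libraries per group these values depend on each other, so they cannot tell if same-numbered libraries share more than a number. A pair of alternatives was chosen after seeing the data. Rows without exons of other annotated genes gave 18 and 5. Rows with at least 50% of their bases on exons gave 4 and 1, with only 10 members left to test. Values of uncalled members that changed sign were small for most. Cep63 was 0.16 with total scaling and 0.0336 without a filter, and Ift22 was 0.0269 with total scaling. Kif24 was -0.00514 under the block, -0.00119 without other genes' exons and -0.00508 with mostly exonic rows. With 1 library left out Cep152 ran from -0.0330 to 0.18, Cep63 from -0.12 to 0.0407, Ift22 from -0.34 to 0.050, Kif11 from -0.18 to 0.24, Kif1a from -0.60 to 1.17, Kif24 from -0.19 to 0.17 and Kif5c from -0.0682 to 0.55. The cause was not tested. Low counts limit Dnah2, Nphp4, Kif27, Cep131 and Cep290, and few covered exon bases limit what part of a transcript each member stands for.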
